A study of Homo sapiens with 12 samples.

Results

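The albumin gene cluster on human chromosome 4 was described through 3 genes: ALB (ENSG00000163631.18), AFP (ENSG00000081051.8) and AFM (ENSG00000079557.5), 3 of 20033 protein-coding genes annotated on hg38. They were chosen by name, and their histone H3 lysine 27 acetylation (H3K27ac) peaks by position, as every ChIP-seq peak overlapping chr4:74230000-74400000 on hg19. This gave 27 of 41082 peaks in the control list and 56 of 45586 in the knockdown list. Peaks of HSF1 and H3K27ac CUT&Tag, an assay in which a tethered transposase cuts DNA beside the antibody target, were taken within the gene bodies plus 30 kb on hg38. The builds were kept apart and no position was converted.

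The study asked how HSF1, the master transcription factor of the heat shock response, affects enhancers in liver cancer cells. All libraries came from Huh7, an established human hepatocellular carcinoma (HCC) line. ChIP-seq of H3K27ac, each with an input library, was made 48 h after lipid transfection with a control siRNA (siNC) or an siRNA against HSF1 (siHSF1), and the labels do not name which of the HSF1 siRNAs the ChIP-seq used. CUT&Tag of HSF1 and of H3K27ac came from untreated cells, and the RNA-seq samples, and with them the level of HSF1 after knockdown, were not analysed here. Each condition had 1 library, so no difference has a replicate check and no test was run. Intervals of single peaks and of ratios below are 95% intervals that cover counting error only, and reads without molecular identifiers are not independent molecules. Intervals of medians are 95% intervals from the spread between regions of the cluster.

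ALB encodes serum albumin, the main plasma protein made by hepatocytes. AFP encodes alpha-fetoprotein, its fetal counterpart, which the adult liver shuts off and many HCCs express again, and AFM encodes afamin, a plasma glycoprotein that binds vitamin E. The genes arose by duplication and lie in a row on the same strand, where liver factors such as HNF1, C/EBP, FOXA and NF-Y act on their promoters and on distal enhancers. H3K27ac marks active promoters and enhancers, and long stretches of it are called super-enhancers (SEs).

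The promoters are shown because they stand before the RefSeq starts, whose spacing matches the hg19 starts at which the ChIP-seq peaks were read within 32 bp. GENCODE, used for CUT&Tag, starts ALB 7.17 kb and AFP 5.08 kb further upstream on hg38 and AFM at the same base. Each sequence holds the 250 bases before the RefSeq start on GRCh38.p14, plus strand, written 5′ to 3′ (ALB chr4:73404037-73404286, AFP chr4:73435971-73436220, AFM chr4:73481495-73481744). Capitals mark matches of CCAAT on either strand, of TATAAA, and of the HNF1 motif (GTTAAT, any base, ATTAAC) with at most 2 mismatches.
ALB: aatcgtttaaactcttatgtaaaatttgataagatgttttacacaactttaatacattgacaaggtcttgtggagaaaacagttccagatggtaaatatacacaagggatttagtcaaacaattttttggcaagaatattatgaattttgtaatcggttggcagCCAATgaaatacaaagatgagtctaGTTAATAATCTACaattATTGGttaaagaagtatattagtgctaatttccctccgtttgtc
AFP: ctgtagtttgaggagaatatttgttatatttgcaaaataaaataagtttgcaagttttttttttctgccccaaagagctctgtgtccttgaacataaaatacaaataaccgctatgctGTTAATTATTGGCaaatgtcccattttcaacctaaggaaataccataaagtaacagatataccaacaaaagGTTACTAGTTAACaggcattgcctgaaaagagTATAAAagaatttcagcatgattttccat
AFM: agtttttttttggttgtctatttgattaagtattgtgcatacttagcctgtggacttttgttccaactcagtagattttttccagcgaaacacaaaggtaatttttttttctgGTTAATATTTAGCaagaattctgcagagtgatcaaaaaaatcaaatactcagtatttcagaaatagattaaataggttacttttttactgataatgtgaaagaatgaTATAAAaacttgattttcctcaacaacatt

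All 3 promoters held an HNF1 match, against 1.24% of 35116 RefSeq promoters. It lay 61 to 49 bases upstream of the ALB start, 132 to 120 and 61 to 49 bases upstream of the AFP start, and 137 to 125 bases upstream of the AFM start, each with 2 mismatches. CCAAT, the core of NF-Y sites, was present in ALB and AFP and in 32% of all promoters. ALB held it on the plus strand 86 to 82 bases upstream and on the minus strand 44 to 40 bases upstream, while the AFP match, 125 to 121 bases upstream on the minus strand, overlapped the distal HNF1 match. TATAAA stood 29 to 24 bases upstream in AFP and 30 to 25 in AFM, was not found in ALB, and was found in 10.7% of all promoters. Heat shock elements, searched as GAA, TTC and GAA set 2 bases apart with at most 1 mismatch, were found in none of the 3 and in 5.33% of all promoters. A C/EBP motif (TTGCG, any base, AA) was likewise found in none of the 3 and in 0.752% of all. Both strands were searched, and a match is a run of letters, not a bound site. GC content was 30% for ALB, 31.6% for AFP and 28.0% for AFM, against a median of 58.0% over all promoters.

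The siNC ChIP-seq list rested on 9795121 tags after removal of duplicates and the siHSF1 list on 10793650. Tags were extended to 297 bp in siNC and to 175 bp in siHSF1, and the median peak length was 575 bp in siNC and 334 bp in siHSF1. The covered length over all chromosomes in siHSF1 was 0.577 of that in siNC. Pileup, the number of extended tags over a peak's summit, is unscaled. Equal enrichment in both libraries would, from their tags and fragment lengths, give a siHSF1 pileup of 0.649 times the siNC pileup (log2 −0.62). Fold enrichment, which divides the pileup by the local background after adding 1 to each, was the measure of height, and pileup per tag and fragment length was set beside it. Because of the added 1, equal enrichment would not give a fold enrichment ratio of 1 either: its no-change value was a log2 of −0.24 at the median of the cluster's shared regions (range, −0.32 to −0.13) and −0.26 over all shared regions.

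H3K27ac peaks filled the stretch from upstream of ALB to the end of AFP in both libraries and were nearly missing at AFM. In siNC, 21 of the 27 peaks lay in a block of 83.3 kb (chr4:74240732-74324001, hg19), from 29.2 kb upstream of the ALB start to 54.0 kb downstream of it, and covered 81.8% of it. In siHSF1, 53 of the 56 peaks lay in a block of 81.1 kb (chr4:74241192-74322293) and covered 56.8% of it. Beyond the block came a gap without a peak of 40.5 kb in siNC and 43.3 kb in siHSF1, and in both lists the AFM start lay inside that gap. Past the gap, 6 siNC peaks had fold enrichments of 3.34 to 7.14 and 3 siHSF1 peaks of 3.77 to 5.61.

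**Figure D1:**
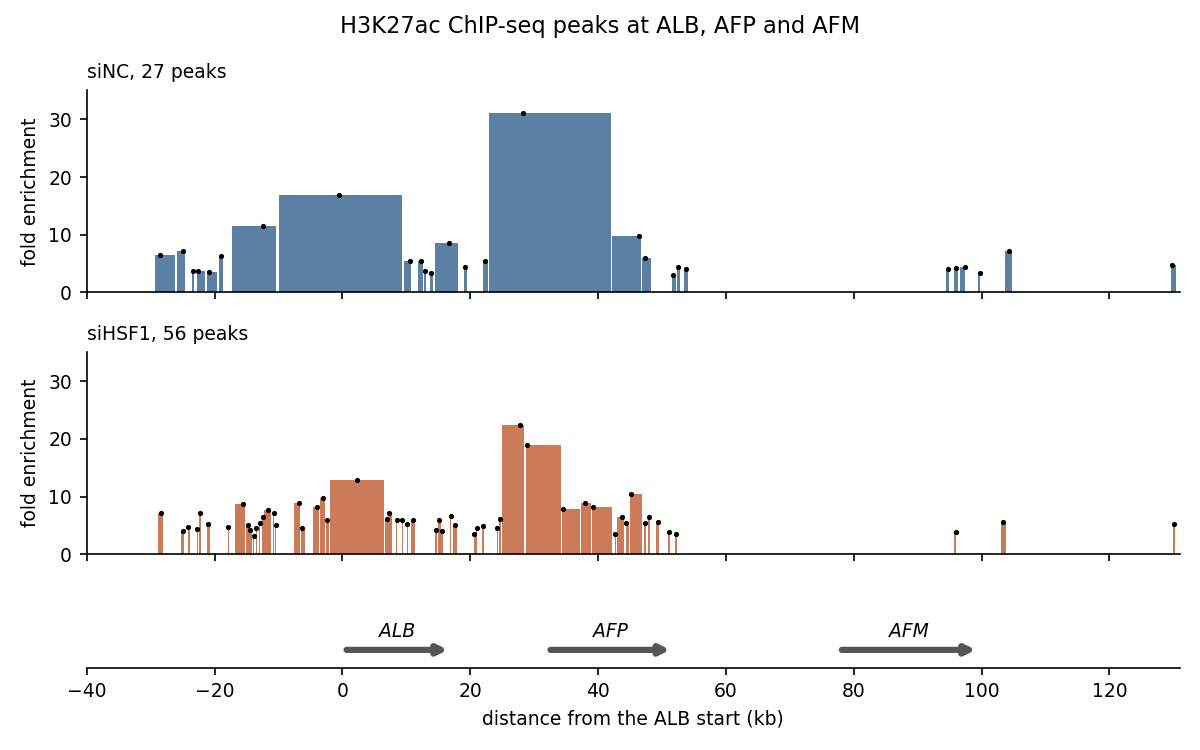
H3K27ac ChIP-seq peaks of siNC (27, top) and siHSF1 (56, middle) by distance from the ALB start in kb, with the gene bodies as arrows in the direction of transcription (bottom). Bar width is peak length, and bar height and the black point at the summit give the fold enrichment. The tallest bars, 31.1 in siNC and 22.4 in siHSF1, have their summits between ALB and AFP, and the siNC bar reaches into the AFP body.

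The siNC peaks of the window had a median length of 862 bp (range, 316 to 19303 bp), and the siHSF1 peaks one of 330 bp (175 to 8388 bp). Their median fold enrichment was 4.81 in siNC, where the whole list had 5.12, and 5.59 in siHSF1, where the whole list had 5.43. Most peaks of the cluster were thus of ordinary height for their list, and 13 of 27 siNC peaks (48.1%) and 31 of 56 siHSF1 peaks (55.4%) stood above the list median. Only 2 peaks of the window in each list were among the top 1% by fold enrichment. Among the top 1% by length were 3 siNC and 4 siHSF1 peaks.

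The cover was dense over ALB and AFP and sparse over AFM. Peaks lay over 85.4% of the ALB body in siNC (14.6 kb) and 56.7% in siHSF1 (9.72 kb). Over the AFP body they lay on 81.1% (16.2 kb) and 73.0% (14.6 kb). Over the AFM body they lay on 9.23% (2.06 kb) and 1.48% (0.329 kb). In both libraries the AFM body thus had far less cover than either neighbour.

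The siHSF1 list covered less of every interval, by unequal shares. The ratio of siHSF1 to siNC cover was 0.656 over the window, 0.900 in the AFP body, 0.770 between ALB and AFP and 0.664 in the ALB body. It was 0.514 upstream of ALB, 0.286 between AFP and AFM, 0.160 in the AFM body and 0.454 downstream of AFM. Of the 7 intervals, the AFP body had the highest ratio and the AFM body the lowest. Past AFP the ratios rest on few siHSF1 peaks. There was 1 between AFP and AFM (331 bp, 8 tags), 1 in the AFM body (329 bp, 6 tags) and 2 downstream of AFM. The AFP body, the ALB to AFP interval and the ALB body lay above the genome-wide ratio of 0.577, and the other intervals lay below it. How far the shorter extension of siHSF1 tags sets these ratios was not tested.

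**Figure D2:**
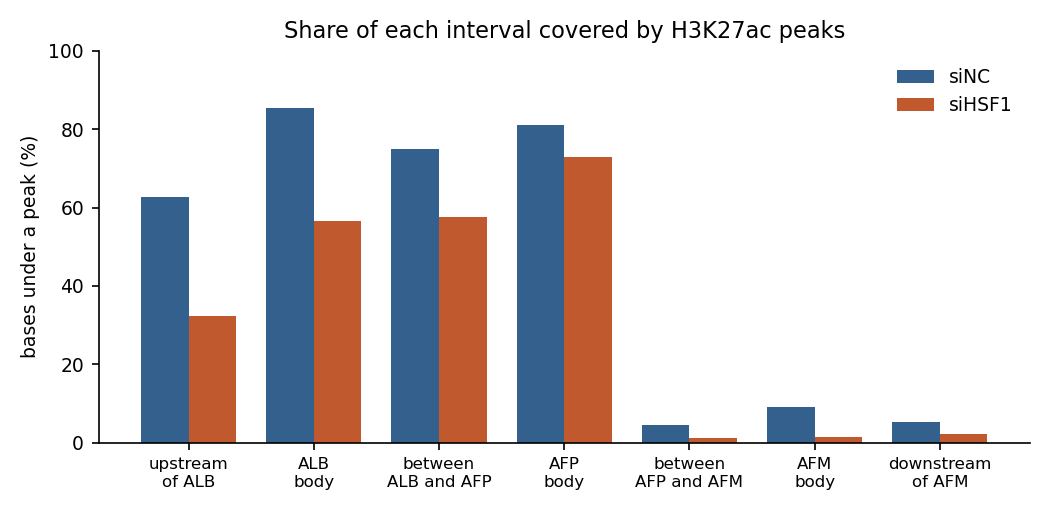
Share of bases under an H3K27ac peak (%, y axis) in 7 intervals of the window (x axis), siNC in blue and siHSF1 in orange. Every siHSF1 bar is the lower of its pair, with 73.0% against 81.1% in the AFP body and 1.48% against 9.23% in the AFM body.

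The ALB start (chr4:74269972, hg19) lay inside an siNC peak of 19303 bp (chr4:74259986-74279288), the 9th longest of that list, which began 9.99 kb before the start and ended 9.32 kb past it. Its summit was 602 bp upstream of the start, with a pileup of 34 tags (23.5 to 47.5) and a fold enrichment of 16.8, rank 336. In siHSF1 the start lay inside a peak of 8388 bp (chr4:74268031-74276418), the 12th longest of its list. That summit was 2318 bp downstream of the start, with a pileup of 21 tags (13.0 to 32.1) and a fold enrichment of 12.9, rank 1084. The local background was at the genome-wide level in both, 1.08 tags in siNC and 0.700 in siHSF1.

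The ALB peak was 1.30-fold lower in siHSF1 by fold enrichment (log2 −0.38, −1.24 to 0.45). Equal enrichment would give 13.6 in siHSF1, a log2 of −0.31, so the difference was within counting error of no change. Per tag and fragment length the difference was smaller, at log2 −0.072 (−0.93 to 0.75). The highest point of H3K27ac lay before the start used on hg19 in siNC and past it in siHSF1, 2920 bp apart. A separate siHSF1 peak (chr4:74266420-74267179) had its summit 2965 bp upstream of the start, with 18 tags (10.7 to 28.4) against 21. Which side of the start was higher in siHSF1 was thus within counting error by pileup.

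The AFP start (chr4:74301880, hg19) lay inside an siNC peak of 19037 bp (chr4:74292985-74312021), the 12th longest, which began 8.90 kb before the start and ended 10.1 kb past it. The summit was not at the start but 3672 bp upstream of it, in the interval between ALB and AFP. Its pileup was 64 tags (49.3 to 81.7) and its fold enrichment 31.1, rank 5 of the 41082 siNC peaks and 96.6% of the highest value in the list. The siHSF1 peak over the AFP start spanned 5486 bp (chr4:74298653-74304138). Its summit was 2995 bp upstream, with a pileup of 36 tags (25.2 to 49.8) and a fold enrichment of 18.9, rank 99. The higher neighbour of that peak (chr4:74294870-74298390, 3521 bp) did not reach the start and had its summit 4184 bp upstream, with 37 tags and a fold enrichment of 22.4, rank 27. In both libraries the highest H3K27ac of the cluster thus lay several kb upstream of the AFP start used on hg19. As GENCODE starts AFP further upstream on hg38, whether these summits lie at another annotated AFP start was not tested, since no position was converted.

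At the AFP start, fold enrichment was 1.65-fold lower in siHSF1 (log2 −0.72, −1.35 to −0.11). Equal enrichment would give 24.9 in siHSF1, a log2 of −0.32, which lies inside that interval, so the difference was within counting error of no change. Per tag and fragment length it was log2 −0.21 (−0.84 to 0.40), where no change is 0. Against the higher neighbour the fold enrichment difference was log2 −0.48 (−1.10 to 0.13). The local background of the siHSF1 peak at the start was 0.959 tags, above the genome-wide 0.700, while that of the siNC peak was 1.09 against 1.08.

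The order of AFP and ALB was the same in both libraries. In siNC the highest AFP-side pileup was 1.88 times the ALB pileup (1.22 to 2.94), and in siHSF1 it was 1.76 times (1.00 to 3.17). By fold enrichment the ratio was 1.85 in siNC and 1.73 in siHSF1. The pileup ratio within a library does not depend on its depth, whereas the fold enrichment ratio does through the added 1. The difference between the 2 pileup ratios was small beside their intervals.

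**Figure D3:**
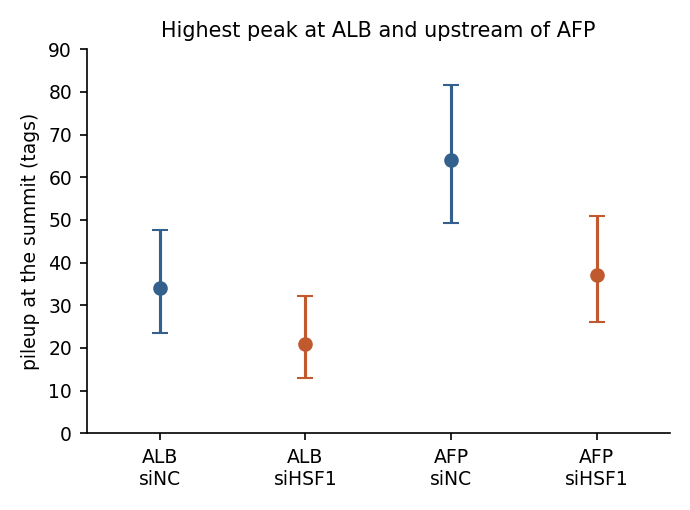
Pileup at the summit (tags, y axis) of the highest H3K27ac peak at ALB and upstream of AFP in siNC (blue) and siHSF1 (orange), with exact Poisson 95% intervals as bars. AFP is above ALB in both libraries (64 and 34 tags in siNC, 37 and 21 in siHSF1), and pileup is not scaled for tags or fragment length.

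The AFM start (chr4:74347462, hg19) had no peak within 1 kb in either list. The nearest peak began 17.0 kb downstream of the start in siNC (chr4:74364458-74364849) and 18.2 kb downstream in siHSF1 (chr4:74365619-74365947), so H3K27ac peaks at AFM lay toward the 3′ end of the gene. The 4 siNC peaks with a summit in the AFM body had pileups of 8 to 12 tags and fold enrichments of 3.34 to 4.41, and the 1 siHSF1 peak had 6 tags and a fold enrichment of 3.77. Between 5.08% and 31.4% of the siNC list had a lower fold enrichment than these 4 peaks, and 7% of the siHSF1 list had a lower one than the siHSF1 peak. The siHSF1 summit lay 3 bp from that of an siNC peak at 18.5 kb into the gene, where fold enrichment was 4.32 in siNC (log2 −0.20, −1.90 to 1.33). Only signal past the cutoff enters a list, so weak acetylation at the AFM promoter would not be seen.

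Peak by peak, overlapping peaks of both lists (at least 1 shared base) merged into 33 regions. Of these, 16 held peaks of both lists, 11 of siNC alone and 6 of siHSF1 alone. The siNC peaks without an siHSF1 partner were 40.7% of the 27, against 48.3% of the whole siNC list. The siHSF1 peaks without an siNC partner were 10.7% of the 56, against 25.4% of the whole siHSF1 list. The unshared peaks were short and low, with fold enrichments of 3.34 to 6.26 over 316 to 890 bp in siNC and of 3.43 to 5.57 over 175 to 345 bp in siHSF1. No region with a fold enrichment above 6.26 was thus unshared. Of the siNC peaks with no partner, 3 lay in the AFM body and 3 in the ALB body.

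The 5 highest regions of the cluster were present in both lists. After the AFP region (31.1 in siNC, 22.4 in siHSF1) and the ALB region (16.8 and 12.9) came an element upstream of ALB at chr4:74252757-74259667, from 17.2 to 10.3 kb before the start. Its fold enrichment was 11.6 in siNC and 8.68 in siHSF1 (log2 −0.41, −1.43 to 0.57), with 1 siNC peak facing 10 siHSF1 peaks. A region inside AFP (chr4:74312184-74316809) had 9.74 in siNC and 10.5 in siHSF1 (log2 0.10, −0.84 to 1.03). The region over the 3′ end of ALB (chr4:74284425-74288061) had 8.62 and 6.63 (log2 −0.38, −1.54 to 0.72). Of the 5, chosen by the higher of their siNC and siHSF1 values, only the one inside AFP was not lower in siHSF1. That count depends on the choice. By siHSF1 values alone, the region at chr4:74247163-74248427 (3.66 in siNC, 7.15 in siHSF1) would replace the one over the 3′ end of ALB. Each of the 5 intervals held both 0 and the region's no-change value.

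Over the 16 shared regions the median log2 ratio of siHSF1 to siNC fold enrichment was −0.040 (−0.38 to 0.14), with 8 regions below 0 and 8 above. Against each region's own no-change value, 7 were below and 9 above, with a median difference of 0.16. Over all 19826 shared regions the median log2 ratio was −0.0051, and the median difference from no change was 0.24. By at least 1.5-fold, 1 of the 16 was lower in siHSF1, where 10.3% of all shared regions were, and 1 was higher, where 11% were. The lower region (chr4:74244142-74245364) went from 7.22 in siNC to 4.08 in siHSF1 (log2 −0.82, −2.37 to 0.58), and the higher one (chr4:74247163-74248427) from 3.66 to 7.15 (log2 0.97, −0.34 to 2.32). Both lie upstream of ALB. Each of the 16 intervals held 0 and the no-change value, so no height difference between the libraries was detectable at this depth in a region of the cluster by its highest peaks.

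Other measures of height gave other medians. Per tag and fragment length the median log2 ratio was −0.075 in the cluster (−0.17 to 0.42) and 0.24 over all shared regions. By that measure 0 of 16 regions were lower by at least 1.5-fold, against 1.92% of all, and 2 were higher, against 20.5% of all. Pileup scaled to tags alone gave −0.84 in the cluster and −0.53 over all regions, and pileup over local background gave 0.29 in both.

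**Figure D4:**
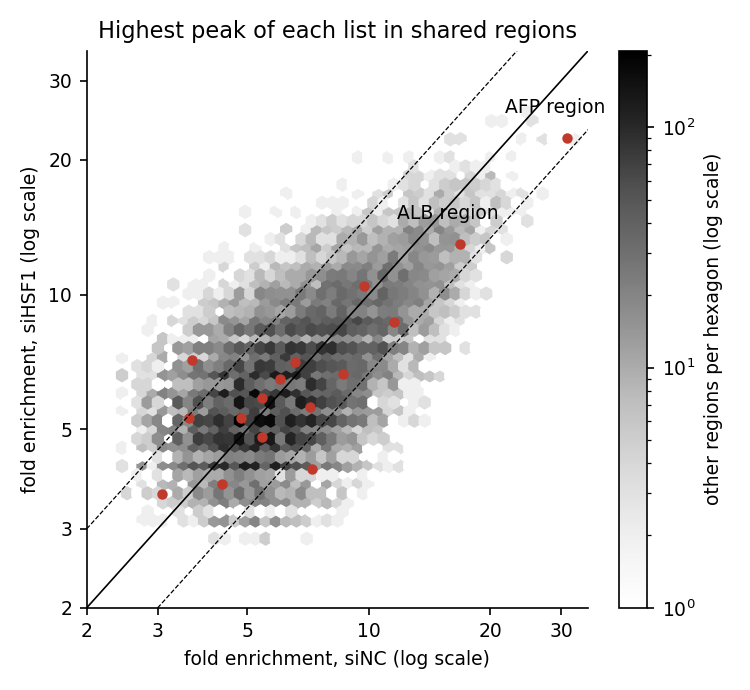
Fold enrichment of the highest siNC peak (x axis, log scale) and the highest siHSF1 peak (y axis, log scale) in each of 19826 shared regions. Red points are the 16 regions of the albumin cluster, grey hexagons count the other regions, the solid line marks equality and the dashed lines 1.5-fold, and 14 of the 16 red points lie between the dashed lines.

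The libraries also differed in how the signal was divided into peaks. A shared region held 3.13 siHSF1 peaks on average in the cluster and 1.71 over all chromosomes, and in the cluster each shared region held 1 siNC peak. Under the siNC peak at ALB lay 10 siHSF1 peaks of 181 to 8388 bp, with fold enrichments of 4.59 to 12.9. Under the siNC peak at AFP lay 7 siHSF1 peaks of 175 to 5486 bp, with fold enrichments of 4.6 to 22.4. The gaps between the siHSF1 peaks were short, 121 to 1170 bp (median, 222 bp) at ALB and 151 to 262 bp (median, 183 bp) at AFP. At AFP all 6 gaps, and at ALB 6 of 9, were shorter than the 297 bp to which siNC tags were extended. Such gaps were not counted at other peaks, and whether the extension sets the division was not tested.

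Other long siNC peaks also lay over several siHSF1 peaks. The siNC list held 114 peaks of at least 10 kb and the siHSF1 list 6. The 114 were chosen by siNC length alone, which by itself favours shorter siHSF1 peaks under them. The siNC peaks under the 6 long siHSF1 peaks were not counted, so the division is described from 1 side only. Under the 114 lay a median of 7 siHSF1 peaks (range, 3 to 15), and siHSF1 peaks covered a median of 82.0% of their length (47.9% to 96.6%). ALB, at 69.3%, stood 87th of the 114 from the most to the least covered, and AFP, at 88.2%, stood 25th. The ALB share was thus below the median and the AFP share above it, with both inside the range of the other 112.

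**Figure D5:**
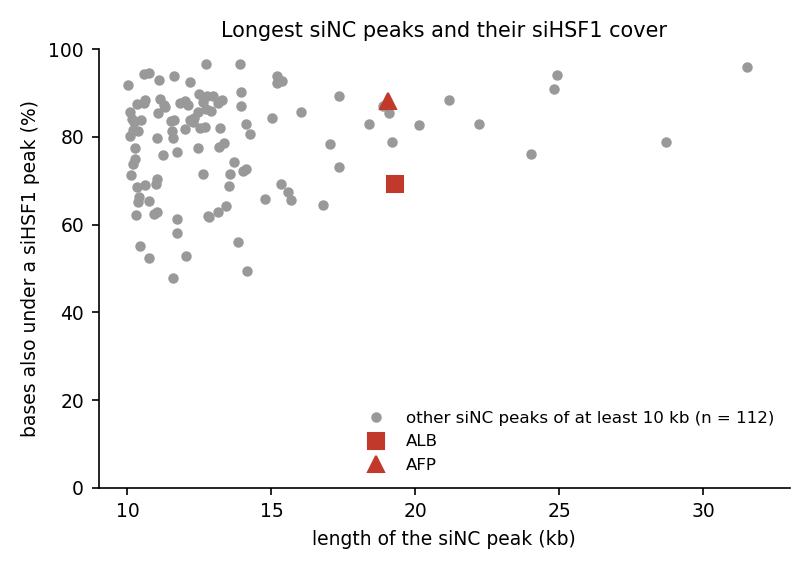
Length of each siNC peak of at least 10 kb (kb, x axis) and the share of its bases under an siHSF1 peak (%, y axis, n = 114). The ALB peak (square, 69.3%) and the AFP peak (triangle, 88.2%) are nearly equal in length, with AFP the higher.

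When neighbouring peaks were stitched, as is done to define SEs, ALB and AFP fell into the same region in both lists. Signal here was the summit pileup above background per tag times peak length, summed over the peaks of a region. It thus gives the summit height to the whole peak and depends on how the signal is divided into peaks. By this measure the region ranked 4th of 14420 stitched regions in siNC, with 0.304% of the total and 154 times the median region. How far the division into peaks sets these values was not tested. In siHSF1 the region ranked 7th of 13377, with 0.253% of the total and 111 times the median. The region was thus among the 7 strongest of either list. AFM was not part of it, and the stitched region at the 3′ end of AFM ranked 4223rd in siNC (chr4:74364458-74374668) and 6489th in siHSF1 (chr4:74365619-74373722).

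HSF1 CUT&Tag gave no peak in the cluster. Within the bodies of ALB (chr4:73397114-73421482, hg38), AFP (chr4:73431138-73456174) and AFM (chr4:73481745-73504001) plus 30 kb, 0 of 7147 HSF1 peaks were found, and 47.3% of all protein-coding genes had at least 1. Within 1 kb of the GENCODE starts there was again 0, against 21.9% of all protein-coding genes. The RefSeq starts lie inside the GENCODE bodies, so the count there was 0 too. Widening the flank to 100 kb still gave 0. The library held 2712212 tags after removal of duplicates, and a peak needed a p-value of 1e-05, so weaker binding would not be listed.

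The nearest HSF1 peak lay 138 kb upstream of ALB, at the promoter of ANKRD17, a gene for an ankyrin repeat protein next to the cluster. It had a pileup of 9 tags and a fold enrichment of 6.17, below the list median of 6.85, and its summit was 335 bp upstream of the ANKRD17 start. On the other side the next HSF1 peak lay 654 kb downstream of AFM. The sequence under the ANKRD17 peak (chr4:73259013-73259216, hg38, plus strand) is given as the only HSF1 peak near the cluster. It has no capitals because none of the 5 motifs searched in the promoters matched, and its GC content was 64.7%.
ANKRD17 peak: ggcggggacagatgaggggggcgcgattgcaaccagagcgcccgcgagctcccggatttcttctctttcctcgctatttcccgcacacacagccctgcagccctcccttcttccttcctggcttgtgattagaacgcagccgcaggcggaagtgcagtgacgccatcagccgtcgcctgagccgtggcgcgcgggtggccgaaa

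H3K27ac CUT&Tag of untreated cells also gave 0 peaks at the 3 genes plus 30 kb, where 8.89% of all protein-coding genes had at least 1, and 0 within 1 kb of the GENCODE starts, where 2.76% did. Its nearest peaks lay 3564 kb upstream of ALB and 8870 kb downstream of AFM. This list held 1299 peaks from 896393 tags, 5.70% of the tags given to the caller, after removal of duplicates. By the same mark, ChIP-seq of siNC cells thus had its 4th strongest stitched region at ALB and AFP while the CUT&Tag list was empty there. None of 12 hepatocyte genes, ALB and AFP included, had an H3K27ac CUT&Tag peak within 1 kb of the start, nor did any of 4 fibroblast, 3 endothelial or 4 blood genes. The list therefore does not serve as a check of cell type. The part of depth in this difference was not tested.

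Of 24 genes for factors known to act at the albumin and AFP promoters and enhancers, 5 had an HSF1 peak within 1 kb of the start (20.8%, against 21.9% of all protein-coding genes). NFYA, the gene for a subunit of NF-Y, had the highest, with a pileup of 43 tags and a fold enrichment of 12.2. ZBTB20, a repressor of AFP in the postnatal liver, had 32 tags and 10.3. NR5A2, a nuclear receptor that activates AFP, had 13 tags and 8.43. The pioneer factor gene FOXA3 had 18 tags and 7.31, and HNF4A, a nuclear receptor of hepatocyte identity, had 8 tags and 5.36. Each gene was counted at its outermost GENCODE start only, and whether that start is the one used in Huh7 was not tested. The share of these factor genes was close to that of all genes, so HSF1 peaks were not more frequent at them by this count. None of the 24 had an H3K27ac CUT&Tag peak within 1 kb, where 2.76% of all protein-coding genes did, so 0 of 24 is not set apart from that share. Of the 3 neighbours, the vitamin D binding protein gene GC and RASSF6 had no HSF1 peak within 1 kb, unlike ANKRD17. Among the marker lists, HSF1 peaks lay within 1 kb of 2 of 12 hepatocyte genes (APOB and HNF4A), 1 of 4 fibroblast genes (COL1A1), 0 of 3 endothelial genes and 0 of 4 blood genes. Over all protein-coding genes the share was 21.9%, and these lists are too short to be set apart from it.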

How the data were processed

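H3K27ac ChIP-seq (siNC and siHSF1, each with input) and CUT&Tag of HSF1 and H3K27ac in untreated Huh7 cells were analysed from the deposited peak lists, 1 library per condition, each called by itself. The authors called peaks with MACS2 (per the file headers, 2.1.1.20160309 for ChIP-seq against input at a q-value of 0.05, and 2.1.4 for CUT&Tag without control at a p-value of 1e-05) after duplicate removal. The deposited pileup is a signal, the whole number of extended tags at the summit, with no depth scaling. The fold enrichment the authors deposited divides this pileup by the local background, each with 1 added. The −log10 values in the deposited lists, for the p-value and the q-value, are those of MACS2. The CUT&Tag headers say that q-values were not calculated, although the column holds values, and it served only as a filter. The ChIP-seq headers name BWA and hg19, whereas the methods name Bowtie2 and hg38. No hg19 genome was used here, so ChIP-seq peaks are given without sequence.

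Local background was recovered from pileup and fold enrichment. Peaks of both lists overlapping by at least 1 bp were merged, the highest peak of each list was compared, and 1.5-fold counted as higher or lower. Peaks within 12.5 kb were stitched and ranked by summit pileup above background per tag times length, summed over peaks. Pileup intervals are exact Poisson, ratio intervals come from exact binomial (Clopper-Pearson) intervals on the 2 pileups, and median intervals from order statistics, all at 95%. Genes on hg38 were from GENCODE release 44, promoters from RefSeq. The 3 gene positions on hg19 were given with the gene list. Their lengths differed from RefSeq on GRCh38.p14 by at most 70 bp, whereas the GENCODE bodies span 24.4 kb for ALB and 25.0 kb for AFP against 17.2 and 20.0 kb on hg19. The no-change value, added after seeing the data, multiplies the siNC pileup and background by the ratio of tags and fragment lengths. Values are printed for the peaks at the starts, the 5 highest regions and the regions past 1.5-fold; the upstream AFP peak, chosen after its values were seen, is added, and of the fixed gene lists those with an HSF1 peak are named. The members, lists and tests were chosen with earlier results of these data known. Alternatives were other peak filters, overlaps, merging, stitching distances and height measures. Overlap, stitching and interval code was tested on simulated data. Tables were made with pandas 2.3.3 and numpy 2.4.6 under Python 3.11.15, intervals with scipy 1.17.1 and plots with matplotlib 3.10.9. The RNA-seq samples were not analysed here.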

Additional observations from a re-analysis of the deposited data

How the results depend on the processing

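No paired analysis was possible because each condition had 1 library, which also leaves no replicate to omit. For 13 results, 45 alternatives were run, and 32 kept a count within 1.5 times or a value within its interval. The other 13 moved it further, and 0 reversed a call. A call meant a height ratio of at least 1.5-fold, which only the AFP start had, so no other result could reverse. The interval covered counting error at the starts and the spread between regions for the median. The median changed sign, from −0.040 to 0.29 by pileup over local background, and counted as moved. With only peaks of −log10 q of at least 5, the window held 13 siNC and 31 siHSF1 peaks, in 9 shared regions, 4 with siNC alone and 2 with siHSF1 alone. With a fold enrichment of at least 5 it held 13 siNC peaks. Merging peaks within 1 kb gave 6 shared regions, 1 with siNC alone and 0 with siHSF1 alone. The median log2 ratio at shared regions was −0.84 by pileup scaled to tags, −0.70 by pileup as deposited and 0.29 by pileup over local background. The stitched region at ALB and AFP ranked 2 in siNC by fold enrichment times length. The cause of these shifts was not tested. Alternatives at the AFM start gave no value because neither list has a peak within 2 kb. The comparison with the highest siHSF1 peak overlapping the siNC peak, at ALB and at AFP, was added after seeing the data. Pileups of 6 to 64 tags limit the precision of each height.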

Other observations

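The amount of the mark at the cluster was also set beside windows of the same size laid end to end along the chromosomes. The cluster window had been placed around the genes, whereas the others had fixed edges. In siNC, peaks covered 71.8 kb of the cluster window, against a median of 2.72 kb over the 7748 windows of 170 kb with a peak, and 2 of them were covered more, up to 78.3 kb. In siHSF1, the cluster had 47.1 kb, against a median of 1.59 kb over 7356 windows, and 3 were covered more, up to 49.5 kb.

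The local background that the caller used at the peaks stood at the genome-wide level for 5 of 27 siNC peaks and 19 of 56 siHSF1 peaks of the window. At the other peaks of the window it rose to at most 2.69 times that level in siNC and 4.11 times in siHSF1. The same counts were not made over the whole lists, so these are not called particular to the cluster.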
